A study of Mus musculus with 8 samples.

Results

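The proteasome is the barrel-shaped protease that degrades proteins tagged with ubiquitin. Its genes were taken as every row of the count table whose mouse Ensembl identifier maps to a symbol beginning with Psma, Psmb, Psmc, Psmd, Psme or Psmf and a number. That gave 49 rows, of which 3 pseudogenes (Psmb6-ps, Psmb6-ps2 and Psmb7-ps2) were dropped, leaving 46 of the 27679 genes listed. By role they comprised 8 alpha subunits and 7 constitutive beta subunits of the 20S core, 3 immunoproteasome subunits, the thymoproteasome subunit Psmb11, 6 ATPases and 11 other subunits of the 19S cap, 3 chaperones of cap assembly, and 6 activators and inhibitors of the core. The remaining member, Psmc3ip, meets the rule by its letters alone, since it encodes a meiotic recombination protein and no part of the proteasome. Of the 46 genes, 45 had enough counts to be tested. Psmb11 did not pass the low-count filter, with 3 reads in all, each of them in the library hydrogel 2.

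The libraries came from megakaryocytes, the large polyploid marrow cells that shed platelets. All were cultured from the bone marrow of wild-type C57BL/6 mice, after magnetic removal of lineage-positive cells, for 3 days, and a BSA gradient then served to select the larger cells. The 4 hydrogel libraries came from cells embedded in 2% methylcellulose, a soft gel (Young modulus 30 to 60 Pa), and the 4 liquid libraries from cells in liquid medium without it. The submitters describe the replicates as independent, and neither the age or sex of the mice nor any pooling is given by the labels.

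Polyadenylated RNA was sequenced, and library totals ran from 27012172 to 49281611 counts. Levels are given as CPM (counts scaled to library size, with TMM factors), and changes as log2 hydrogel minus liquid from edgeR's quasi-likelihood test, with Benjamini-Hochberg adjustment over all 13845 tested genes. A gene is said to have risen or fallen where the adjusted p is below 0.05. All 16 listed megakaryocyte markers passed the count filter. Their summed level was 27870 to 40400 CPM in hydrogel and 33400 to 54360 CPM in liquid. Of them 10 fell and 0 rose, where 14.1% of all tested genes fell and 15.1% rose. The 16 monocyte and macrophage markers summed to 4034 to 8644 CPM in hydrogel and 1075 to 2290 CPM in liquid, and 13 of them rose while 0 fell. Hydrogel 1 and liquid 2 stood closest to the other condition in this sum, at 4034 and 2290 CPM. In bulk RNA such as this, fewer cells of a type and less RNA per cell cannot be told apart.

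The 20S core is a stack of rings, the outer ones built of alpha subunits that gate entry and the inner ones of beta subunits, among them the catalytic ones. The 19S cap unfolds ubiquitin-tagged proteins with its ATPase ring and feeds them into the core, and other activators such as PA28 open the gate without ubiquitin. In cells exposed to interferon and in many blood cells, the catalytic subunits Psmb5, Psmb6 and Psmb7 are replaced in new particles by Psmb8, Psmb9 and Psmb10, which makes the immunoproteasome and shifts the peptides produced towards those that MHC class I molecules present. Megakaryocytes need proteasome activity to release platelets, and proteasome inhibitors lower platelet counts in patients.

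Psmb8, Psmb9 and the PA28 gene Psme1 had the smallest adjusted p-values among the members, and all 3 fell in hydrogel. Psmb9 shares a short stretch upstream of both genes with Tap1, a gene of the peptide transporter that loads MHC class I molecules. It is shown because both genes fell in hydrogel, beside the upstream bases of Psmb8 and Psme1, which also fell, and of Psmb10, which was not called. The sequences are RefSeq's for build GRCm38.p6, in which 39 of the 46 members had a window of 250 bases before and 50 bases after a transcription start. The stretch between the starts of Psmb9 (minus strand) and Tap1 (plus strand) is chr17:34187331-34187555, read on the plus strand. The others are the 250 bases before the start, on the gene's strand, at chr17:34197945-34198194 (Psmb8, plus), chr14:55578244-55578493 (Psme1, plus) and chr8:105938393-105938642 (Psmb10, minus). Capitals mark matches to 6 short motifs, each searched on both strands.
Psmb9 to Tap1: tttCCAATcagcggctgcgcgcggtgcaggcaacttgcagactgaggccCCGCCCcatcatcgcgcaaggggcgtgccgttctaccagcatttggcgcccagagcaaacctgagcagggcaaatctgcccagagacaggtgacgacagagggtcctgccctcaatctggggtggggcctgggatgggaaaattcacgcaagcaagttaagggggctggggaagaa
Psmb8: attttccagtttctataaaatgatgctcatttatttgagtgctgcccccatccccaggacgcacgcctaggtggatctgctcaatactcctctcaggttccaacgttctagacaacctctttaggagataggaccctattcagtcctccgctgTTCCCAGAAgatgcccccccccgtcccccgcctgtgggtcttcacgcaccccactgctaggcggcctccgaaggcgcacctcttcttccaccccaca
Psme1: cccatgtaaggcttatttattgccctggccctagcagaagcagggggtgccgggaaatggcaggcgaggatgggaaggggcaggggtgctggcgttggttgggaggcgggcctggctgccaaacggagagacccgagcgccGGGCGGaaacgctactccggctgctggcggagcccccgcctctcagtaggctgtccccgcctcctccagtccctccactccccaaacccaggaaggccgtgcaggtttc
Psmb10: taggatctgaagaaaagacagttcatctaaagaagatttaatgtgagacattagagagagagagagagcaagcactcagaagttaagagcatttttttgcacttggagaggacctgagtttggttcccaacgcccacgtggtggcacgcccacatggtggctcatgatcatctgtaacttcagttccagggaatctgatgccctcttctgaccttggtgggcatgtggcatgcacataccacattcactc
In the stretch between Psmb9 and Tap1 the capitals are a CCAAT box (CCAAT) and a GC box (GGGCGG, here on the opposite strand). In Psmb8 they are TTCCCAGAA, a match to TTCNNNGAA, the form of the interferon gamma activated site, 97 to 89 bases before the start. In Psme1 they are a GC box. In Psmb10 none of the 6 motifs matched. A match describes the letters and is not a site at which a factor was measured. Over all 32851 RefSeq windows of the same 300 bases, 8.3% held TTCNNNGAA, 37.4% held CCAAT and 35.7% held GGGCGG. The interferon-stimulated response element core, GAAA, any 2 bases and GAAA again, was in 3.44% of all windows and in those of Psmb3, Psmd4, Psmd9 and Psme1, in the last at bases 10 to 19 after the start and so outside the bases printed. The antioxidant response element core, TGACNNNGC, was in 12.4% of all windows and in those of 6 members, among them Psmb5 and Psmb6.

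Psmb8 (ENSMUSG00000024338) encodes the immunoproteasome counterpart of the chymotrypsin-like subunit Psmb5. Its level was 103, 98.8, 92.6 and 93.6 CPM in liquid 1 to 4, and 69.2, 75.0, 72.4 and 80.0 CPM in hydrogel 1 to 4. Every hydrogel library lay below every liquid library. The log2 change was −0.39 ± 0.07 (SE), which is 1.31-fold lower in hydrogel (edgeR adjusted p = 0.0022, n = 4 each). Without hydrogel 1 and liquid 2 the log2 change was −0.33 (edgeR adjusted p = 0.00421).

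Psmb9 (ENSMUSG00000096727) is the counterpart of the caspase-like subunit Psmb6. Its level was 41.2, 41.4, 36.3 and 46.6 CPM in liquid and 29.0, 26.7, 24.8 and 29.4 CPM in hydrogel. The groups again did not overlap, and the log2 change was −0.59 ± 0.09 (SE), 1.51-fold lower in hydrogel (edgeR adjusted p = 0.00151). This was the largest fall among the 45 tested members. Without hydrogel 1 and liquid 2 it was −0.60.

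Psmb10 (ENSMUSG00000031897), the counterpart of the trypsin-like subunit Psmb7, did not pass the test. It had 41.2, 43.1, 39.0 and 39.1 CPM in liquid and 35.5, 41.4, 46.1 and 42.8 CPM in hydrogel. The groups overlapped, with hydrogel 1 lowest of all 8 libraries and hydrogel 3 highest. The log2 change was 0.03 with a 95% interval of −0.16 to 0.22 (edgeR adjusted p = 0.833), and its sign was negative, at −0.03, under upper-quartile scaling. The interval does not reach the values measured for Psmb8 and Psmb9.

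In total 2 of the 3 immunoproteasome genes fell and 0 rose, where 14.1% of all tested genes fell and 15.1% rose. Markers of other cell types differed between the cultures too, some higher and some lower in hydrogel. Beside the macrophage sums given above, which were higher in hydrogel, the 8 dendritic cell markers summed to 16.97 to 20.7 CPM in hydrogel and 29.83 to 53.44 CPM in liquid, with 5 of the 6 tested lower and 1 higher. The 8 mast cell and basophil markers summed to 56.61 to 115.6 CPM in hydrogel and 92.51 to 295.2 CPM in liquid, with 5 of 7 tested lower. The 10 neutrophil markers summed to 276.9 to 677.2 CPM in hydrogel and 277.8 to 1226 CPM in liquid. The 8 lymphocyte markers, of which 3 were tested, summed to 45.33 to 121.5 CPM in hydrogel and 10.81 to 31.3 CPM in liquid, and the 6 erythroid markers, 4 of them tested, to 70.18 to 108.4 CPM and 107.3 to 160.8 CPM. No marker was at 0 in all libraries, and the part of these cells in the fall of Psmb8 and Psmb9 was not tested.

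**Figure D1:**
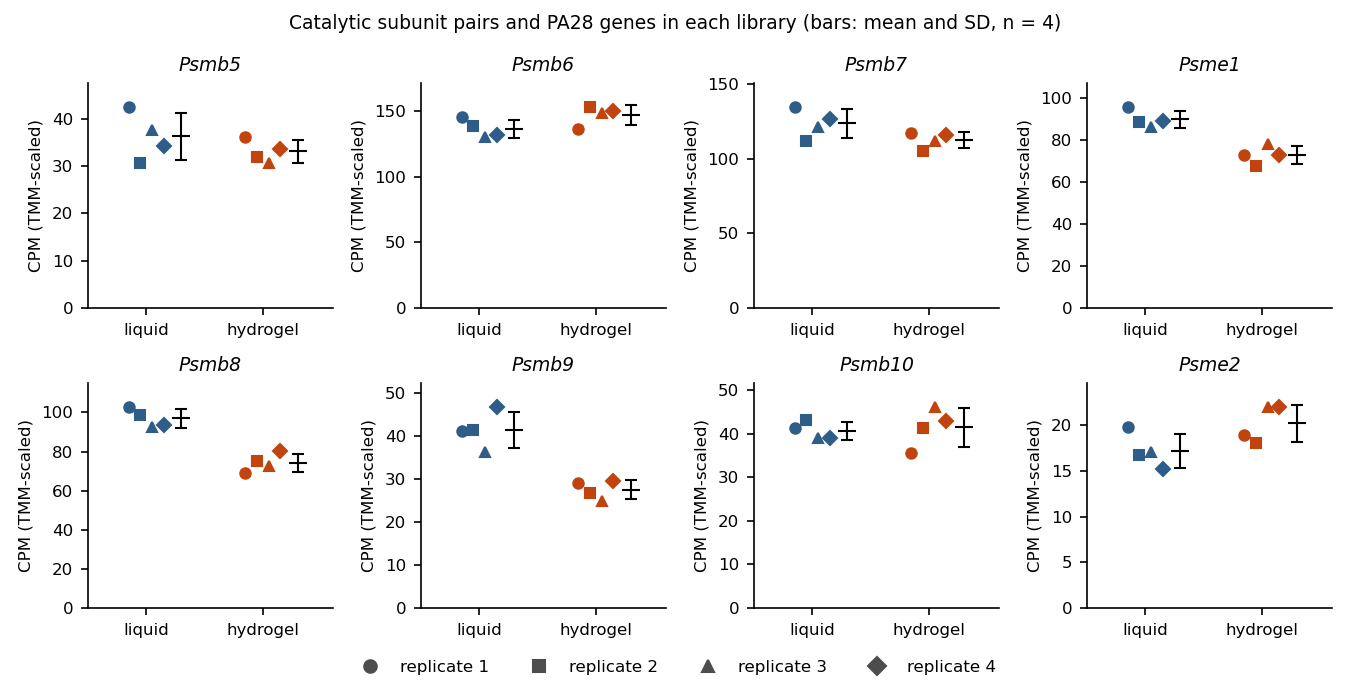
TMM-scaled CPM of 8 genes in each library, liquid in blue and hydrogel in orange, with a symbol for each replicate and the mean and SD (n = 4) beside it. The upper row holds Psmb5, Psmb6, Psmb7 and Psme1, the lower row Psmb8, Psmb9, Psmb10 and Psme2. The hydrogel libraries lie wholly below the liquid libraries for Psmb8, Psmb9 and Psme1, and overlap them for the other 5 genes.

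None of the 3 constitutive catalytic genes passed the test, where 29.3% of all tested genes did. Psmb5 had 42.5, 30.7, 37.8 and 34.3 CPM in liquid and 36.3, 32.02, 30.7 and 33.6 CPM in hydrogel (log2 change −0.13, edgeR adjusted p = 0.381). Psmb6 had 146, 139, 131 and 132 CPM in liquid and 136, 153, 149 and 150.5 CPM in hydrogel (log2 change 0.11, edgeR adjusted p = 0.248). Psmb7 had 134, 112, 121 and 127 CPM in liquid and 117, 105, 112 and 116 CPM in hydrogel (log2 change −0.14, edgeR adjusted p = 0.18). In each of the 3 the groups overlapped, where 28.4% of all tested genes had groups that did not.

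The exchange of catalytic subunits was compared within each library, as the log2 ratio of the counts of the inducible gene to those of its constitutive counterpart, which does not depend on scaling between libraries. For Psmb9 against Psmb6 the log2 ratio was −1.83, −1.74, −1.85 and −1.50 in liquid and −2.24, −2.52, −2.58 and −2.36 in hydrogel. Every hydrogel library was below every liquid library, and the difference of the means was −0.69 ± 0.11 (SE), a 1.62-fold lower ratio in hydrogel. An exact two-sided permutation test gave p = 0.0286, the smallest p that 4 against 4 samples allow, and 0.0429 after adjustment over the 3 pairs.

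For Psmb8 against Psmb5 the log2 ratio was 1.27, 1.69, 1.29 and 1.45 in liquid and 0.932, 1.228, 1.235 and 1.253 in hydrogel. The groups did not overlap, but the lowest liquid library and the highest hydrogel library differed by little. The difference was −0.26 ± 0.12 (SE), or 1.2-fold (exact permutation p = 0.0286, adjusted 0.0429). It was −0.19 without hydrogel 1, −0.18 without liquid 2, and −0.10 without both, where 3 against 3 samples cannot give an exact p below 0.1. Other genes match 88.4% of the Psmb5 transcript, so the height of this ratio is uncertain. For Psmb10 against Psmb7 the difference was 0.16 ± 0.13 (SE), with overlapping groups (exact permutation p = 0.286, adjusted 0.286).

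**Figure D2:**
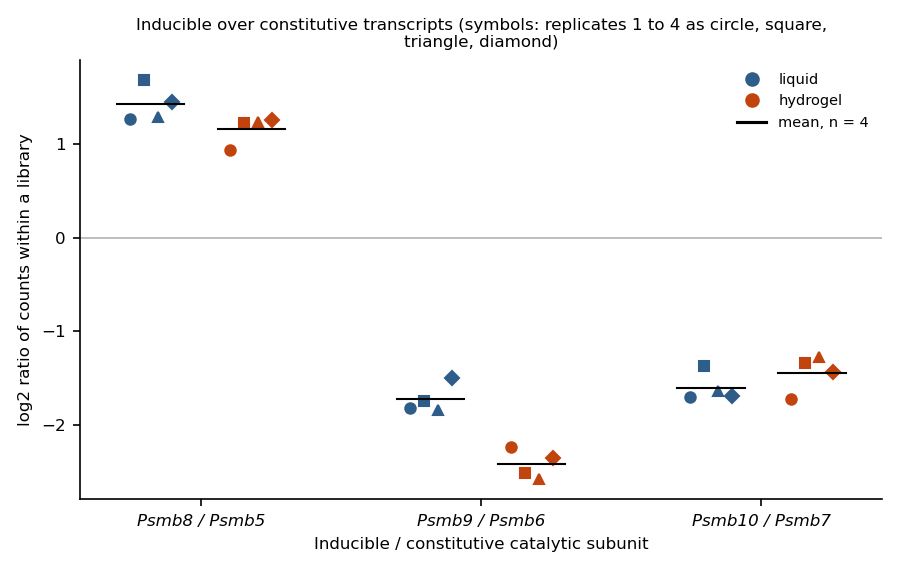
The log2 ratio of counts of an inducible to a constitutive catalytic gene within each library (y axis) for the 3 pairs (x axis), liquid in blue and hydrogel in orange, with a line at the mean of 4. Hydrogel lies lower for Psmb9 against Psmb6 by 0.69 between the means and for Psmb8 against Psmb5 by a narrower gap of 0.26, and the groups overlap for Psmb10 against Psmb7.

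The constitutive proteasome changed little. Of its 32 genes in the 20S core and 19S cap, 0 rose and 3 fell (Psmb1, Psmb4 and Psmd11), where 29.3% of all tested genes changed in either direction. At an unadjusted p below 0.05 there were 6 of the 32, where 41.2% of all tested genes were. The median log2 change was −0.06 over the 32 and −0.01 over all tested genes. The changes ran from −0.27 (Psmb1) to 0.21 (Psma8). The 32 include Psma8, the alpha subunit of the testis, at a mean of 2.58 CPM in liquid and 2.98 CPM in hydrogel. Without Psma8 the highest change was 0.14 (Psmd8). A change within 0.25 log2 units in either direction was found for 29 of the 32, or 90.6%, and for 51.6% of all tested genes. For 30 of the 32, or 93.8%, the whole 95% interval lay within 0.5 log2 units, against 43.6% of all genes, so that larger differences were outside the intervals of these subunits. These 2 shares are not at like precision: the median SE was 0.068 over the 32 and 0.13 over all tested genes. The groups did not overlap for 4 of the 32 genes, each with hydrogel below liquid, where 28.4% of all tested genes had groups that did not overlap and 13.8% had hydrogel wholly below liquid. The members share libraries and are not replicates of the cultures.

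As a share of all counts, the 32 genes took 0.450% to 0.506% of a library, with 0.470% to 0.499% in hydrogel inside the range of liquid. The 3 immunoproteasome genes took 0.0132% to 0.0159% in hydrogel and 0.0155% to 0.0193% in liquid. In TMM-scaled CPM the 32 genes tended to be high or low together in a library. Liquid 1 was the highest of the liquid libraries for 21 of them and liquid 2 the lowest for 20. Hydrogel 1 was the highest of the hydrogel libraries for 20 and hydrogel 3 the lowest for 19. As a share of all counts, without TMM factors, the order differed. There liquid 3 was the lowest liquid library (0.450%) and liquid 2 held 0.489%. Hydrogel 1 held 0.479%, below hydrogel 2 (0.491%) and hydrogel 4 (0.499%). Liquid 2 and hydrogel 1 are the libraries that stood between the cultures in macrophage markers.

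**Figure D3:**
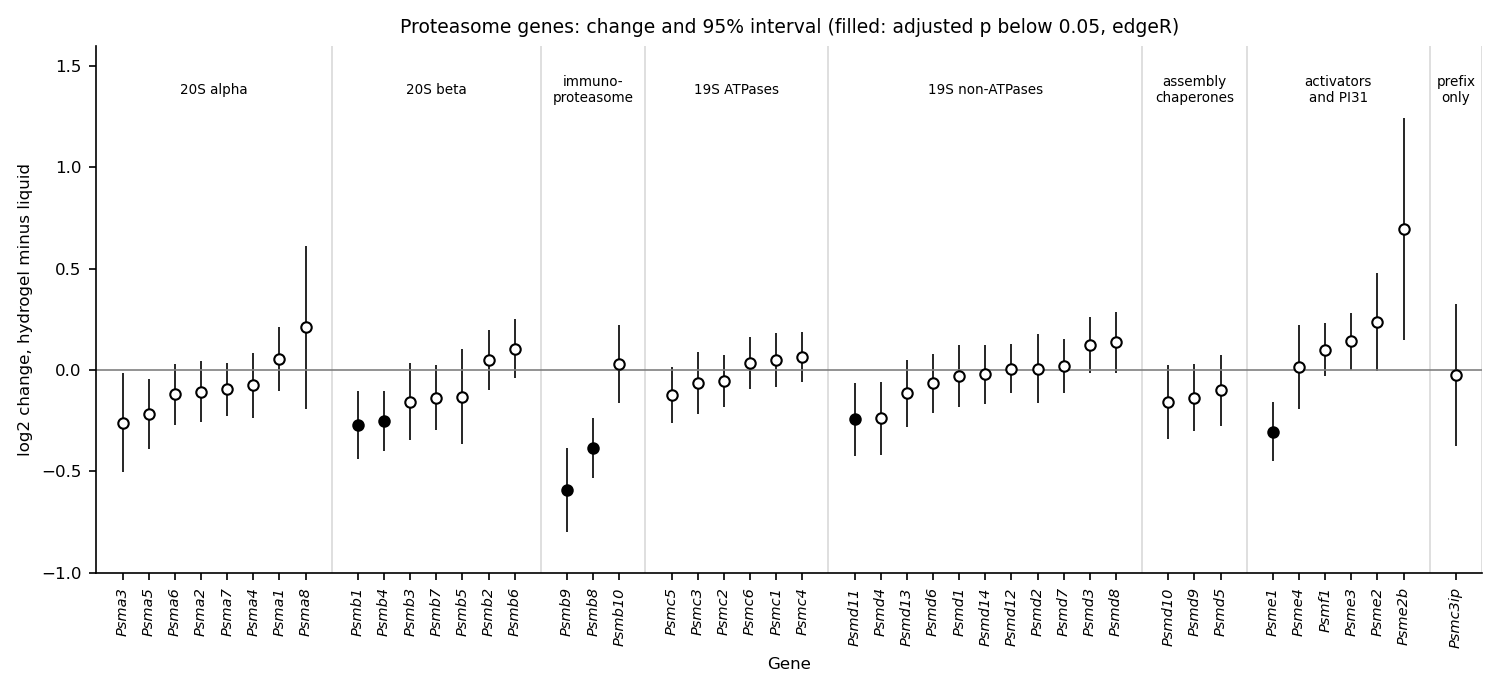
The log2 change from liquid to hydrogel with its 95% interval (y axis) for the 45 tested members, grouped by role and ordered by change within a role (x axis). Filled points have an edgeR adjusted p below 0.05: these are Psmb1, Psmb4, Psmb9, Psmb8, Psmd11 and Psme1, all below 0, and most other points lie within 0.25 of 0.

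Of the 8 alpha subunit genes, which form the gated outer rings, 0 were called, where 29.3% of all tested genes were. Psma3 had the lowest change, with 28.7, 23.8, 24.3 and 31.6 CPM in liquid and 23.9, 23.5, 23.2 and 19.99 CPM in hydrogel (log2 change −0.26, edgeR adjusted p = 0.0996). Its groups overlapped by hydrogel 1 and liquid 2, and without liquid 2 it passed the test (edgeR adjusted p = 0.0442). Psma8, the alpha subunit of the testis, had the highest change and a low level, with 2.89, 2.83, 2.42 and 2.19 CPM in liquid and 2.74, 2.87, 2.66 and 3.66 CPM in hydrogel (log2 change 0.21 with a 95% interval of −0.19 to 0.61).

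Among the alpha genes the groups did not overlap for 2 of 8, Psma5 and Psma7, against 28.4% of all tested genes. Psma5 was at 30.0 ± 1.87 CPM in liquid and 25.7 ± 1.40 CPM in hydrogel (SD over 4 libraries each; log2 change −0.22, edgeR adjusted p = 0.057). Psma7 was at 178 ± 8.43 and 166 ± 2.502 CPM (log2 change −0.09, edgeR adjusted p = 0.254). Psma1, Psma2, Psma4 and Psma6 had log2 changes from −0.12 (Psma6) to 0.06 (Psma1), with overlapping groups.

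Of the 7 constitutive beta genes, 2 fell, the structural subunits Psmb1 and Psmb4, and 0 rose. Over all tested genes 14.1% fell and 15.1% rose. Psmb1 (ENSMUSG00000014769) had 226, 190.4, 205 and 227 CPM in liquid and 186, 165, 175 and 176 CPM in hydrogel (log2 change −0.27 ± 0.08 SE, edgeR adjusted p = 0.0224). Psmb4 (ENSMUSG00000005779) had 264, 229, 239 and 234 CPM in liquid and 211, 203, 196 and 202 CPM in hydrogel (log2 change −0.25 ± 0.07 SE, edgeR adjusted p = 0.0185). In both genes all hydrogel libraries were below all liquid libraries, as in 13.8% of all tested genes. These calls lay near the threshold: without hydrogel 2, without hydrogel 3 or without hydrogel 4 neither gene was called. Psmb1 was not called without liquid 1 or without liquid 4 either, and Psmb4 was not called with library totals alone. Psmb2 and Psmb3, which are structural too, did not pass, with log2 changes of 0.05 and −0.16.

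None of the 6 ATPase genes of the 19S base passed the test, and in each the groups overlapped. Over all tested genes 29.3% passed and 28.4% had groups that did not overlap. The lowest change was in Psmc5, with 156, 154, 149 and 145 CPM in liquid and 147, 138, 129 and 141 CPM in hydrogel (log2 change −0.12, edgeR adjusted p = 0.159). The highest was in Psmc4, with 137, 132, 127 and 129.7 CPM in liquid and 143, 139.8, 132 and 135 CPM in hydrogel (log2 change 0.06, edgeR adjusted p = 0.424). Psmc1, Psmc2, Psmc3 and Psmc6 lay between them, from −0.06 (Psmc3) to 0.05 (Psmc1). The widest 95% interval of the 6 reached 0.15 to either side.

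Of the 11 other cap genes 0 rose and 1 fell, where 15.1% of all tested genes rose and 14.1% fell. The gene that fell was Psmd11. It encodes a lid subunit that contacts the core and had 209, 172, 212 and 215 CPM in liquid and 180.5, 166, 165 and 170.3 CPM in hydrogel (log2 change −0.24 ± 0.08 SE, edgeR adjusted p = 0.0471). Liquid 2 lay below hydrogel 1, so the groups overlapped. Without liquid 2 the adjusted p was 0.00325, and without any of hydrogel 2, 3 and 4 and liquid 1, 3 and 4, left out in turn, it was 0.104 to 0.127 and the call was lost. It was lost as well with DESeq2's size factors (0.0519), library totals alone (0.0594), no low-count filter (0.0801) and limma-voom (0.0558), so that Psmd11 was called in 7 of 17 alternatives. The near neighbour in size was Psmd4, the ubiquitin receptor, at 204 ± 19.4 CPM in liquid and 173 ± 9.56 CPM in hydrogel (log2 change −0.24, edgeR adjusted p = 0.0504).

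Psmd8, a lid subunit, had the highest change of the cap genes, with 289, 258, 266 and 281 CPM in liquid and 281, 303, 310.5 and 308 CPM in hydrogel (log2 change 0.14, edgeR adjusted p = 0.158). Psmd14, the deubiquitinase that cuts ubiquitin chains from the substrate, was at 135 ± 9.70 CPM in liquid and 133 ± 2.59 CPM in hydrogel (log2 change −0.02). The large scaffold subunits Psmd1 and Psmd2 had log2 changes of −0.03 and 0.01. Psmd3, Psmd6, Psmd7, Psmd12 and Psmd13 had changes from −0.12 (Psmd13) to 0.12 (Psmd3), and none passed.

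Promoter windows of the cap genes were read for the same motifs. A gene counted where any of its windows matched, while shares of all windows count single windows. The GC box was in 10 of 14 cap genes with a window, 5 of 11 constitutive core genes and 35.7% of all windows. For the CCAAT box these were 4 of 14, 6 of 11 and 37.4%. The 2 interferon motifs and the antioxidant response element core were each in 1 or 2 of the 14. The ETS core CCGGAAG, bound by factors of the ETS family, was in 9 of the 14 cap genes with a window, in 1 of the 11 constitutive core genes with a window (Psma6), and in 8.86% of all windows. The 4 matches nearest to a transcription start are printed with 7 bases on each side, on the strand that reads CCGGAAG, to show the bases around the motif.
Psmd13, chr7:140882381-140882401: cgcggtgCCGGAAGtgagcga
Psmd11, chr11:80428597-80428617: cacacacCCGGAAGacccgcc
Psmd12, chr11:107479504-107479524: actcgcaCCGGAAGtcgcccg
Psmc2, chr5:21786716-21786736: ttccccaCCGGAAGtagctcc
The capitals are the ETS core, and the build is GRCm38.p6. The core reads on the gene's strand in Psmd13 and on the opposite strand in Psmd11, Psmd12 and Psmc2. Outside the core the printed bases differ from gene to gene. No binding was measured.

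The chaperones Psmd5, Psmd9 and Psmd10 help assemble the ATPase ring and leave before the particle is complete. Psmd5 had 94.9, 92.0, 96.4 and 107 CPM in liquid and 89.6, 93.3, 81.3 and 100.3 CPM in hydrogel (log2 change −0.10, edgeR adjusted p = 0.372). Psmd10 had 36.1, 30.1, 34.8 and 37.6 CPM in liquid and 29.6, 32.1, 30.7 and 31.96 CPM in hydrogel (log2 change −0.16, edgeR adjusted p = 0.177), and passed without liquid 2 (edgeR adjusted p = 0.0389). Psmd9 was at 44.3 ± 3.83 CPM in liquid and 40.3 ± 0.914 CPM in hydrogel, with every hydrogel library below every liquid library, and did not pass (log2 change −0.14, edgeR adjusted p = 0.191).

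Among the activators, Psme1 fell. Psme1 (ENSMUSG00000022216) encodes the alpha subunit of PA28, the interferon-inducible ring that opens the core. It had 95.6, 88.5, 86.2 and 89.1 CPM in liquid and 73.0, 67.4, 77.9 and 72.9 CPM in hydrogel, without overlap. The log2 change was −0.30 ± 0.06 (SE), 1.23-fold lower in hydrogel (edgeR adjusted p = 0.00657), and −0.30 without hydrogel 1 and liquid 2.

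Psme2, the beta subunit that joins Psme1 in the same ring, did not fall with it. It had 19.8, 16.8, 17.1 and 15.2 CPM in liquid and 18.96, 18.1, 22.0 and 22.0 CPM in hydrogel (log2 change 0.24 with a 95% interval of −0.01 to 0.48, edgeR adjusted p = 0.129). Its value is uncertain, since 82.5% of its transcript is matched by transcripts of other genes at 95% identity or more. Psme2b, whose transcript is matched over 94.9%, had 1.03, 0.690, 0.638 and 0.634 CPM in liquid and 1.26, 1.16, 1.24 and 1.16 CPM in hydrogel (log2 change 0.69 with a 95% interval of 0.15 to 1.24, edgeR adjusted p = 0.0584). The hydrogel libraries lay above the liquid ones in Psme2b, at a level near 1 CPM.

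The other activators have no interferon-inducible role. Psme3, the nuclear PA28 subunit, had 235, 231, 218 and 240.3 CPM in liquid and 245, 267, 250.3 and 257 CPM in hydrogel (log2 change 0.14, edgeR adjusted p = 0.117). Psmf1, the core-binding regulator PI31, had 57.3, 51.9, 56.6 and 57.5 CPM in liquid and 59.6, 58.0, 61.2 and 60.7 CPM in hydrogel (log2 change 0.10, edgeR adjusted p = 0.233). In both genes all hydrogel libraries lay above all liquid libraries, as in Psme2b, which makes 3 of the 6 genes of this role against 14.6% of all tested genes, but the changes did not pass. Psme4, the large nuclear activator PA200, had 218, 199.7, 254 and 233 CPM in liquid and 258, 221, 225 and 209.9 CPM in hydrogel (log2 change 0.01, edgeR adjusted p = 0.924), and its sign turned under several alternatives. Of the 6 genes of this role, 1 fell and 0 rose, where 14.1% of all tested genes fell and 15.1% rose.

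Psmb8 and Psmb9 lie in the MHC region of chromosome 17 with the transporter genes Tap1 and Tap2 between and beside them, so the protein-coding genes around them were compared in RefSeq order, a choice made after the changes of Psmb8 and Psmb9 were known. The block Psmb9, Tap1, Psmb8, Tap2 fell throughout. Tap1 was at 173 ± 5.66 CPM in liquid and 129.9 ± 8.29 CPM in hydrogel (log2 change −0.41, edgeR adjusted p = 0.00143). Tap2 went from 336 ± 41.2 to 204 ± 28.9 CPM (log2 change −0.72, edgeR adjusted p = 0.00169). H2-Ob, a class II accessory gene next to Tap2, fell too, from 16.6 to 6.51 CPM (log2 change −1.35, edgeR adjusted p = 0.00137).

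Beyond this block the changes were mixed. The class II genes H2-Ab1, H2-Aa and H2-Eb1 had log2 changes of 1.05, 1.10 and 0.78 (SE 0.38, 0.38 and 0.37), none of which passed. On the other side H2-DMb1 (0.49), H2-DMb2 (−0.98) and H2-DMa (−0.20) did not pass, and Brd2 rose by 0.27 (edgeR adjusted p = 0.0493). The 2 PA28 genes are near neighbours on chromosome 14. Of the tested genes around them, Dcaf11 fell (log2 change −0.29, edgeR adjusted p = 0.0173), and Pck2, Emc9, Rnf31 and Irf9 did not pass.

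**Figure D4:**
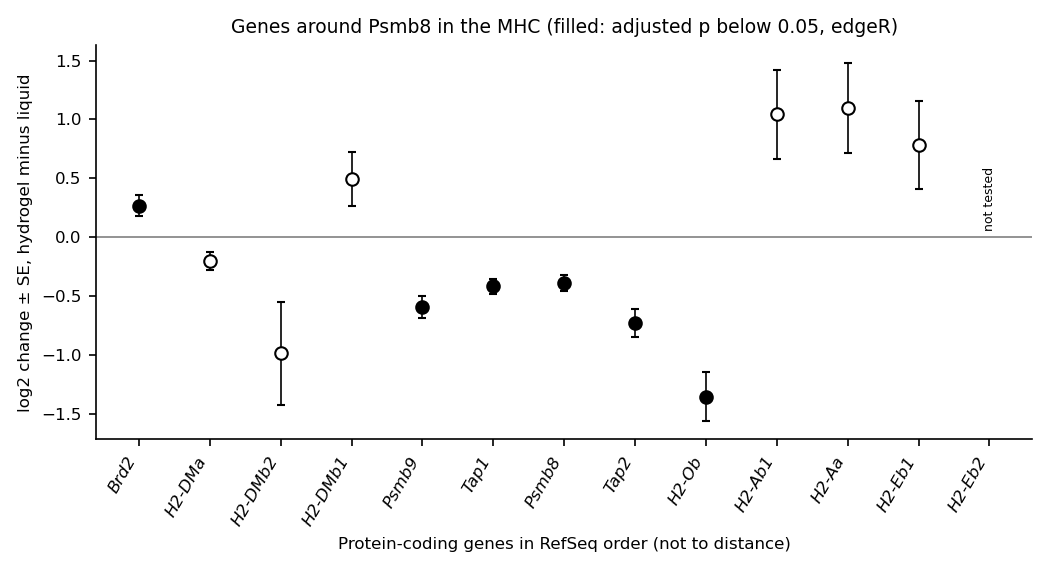
The log2 change from liquid to hydrogel with its SE (y axis) for the protein-coding genes around Psmb8 in RefSeq order, evenly spaced and not to distance (x axis). Filled points have an edgeR adjusted p below 0.05: Psmb9, Tap1, Psmb8, Tap2 and H2-Ob lie below 0, Brd2 lies above it, and H2-Eb2 was not tested.

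Of 12 listed genes of class I antigen processing, 2 rose (H2-D1 and Nlrc5), 2 fell (Tap1 and Tap2) and 8 did not pass, where 15.1% of all tested genes rose and 14.1% fell. The class I heavy chain gene H2-D1 rose, with 519.9 ± 36.6 CPM in liquid and 810.4 ± 87.2 CPM in hydrogel (log2 change 0.64, edgeR adjusted p = 0.00137). Other genes match 20.4% of the H2-D1 transcript, so its value is uncertain. Nlrc5, a transactivator of class I genes, rose from 17.1 ± 3.14 to 23.8 ± 2.65 CPM (log2 change 0.48, edgeR adjusted p = 0.0264), a call lost without hydrogel 2, hydrogel 3, liquid 1 or liquid 4. The light chain gene B2m and the heavy chain gene H2-K1 had log2 changes of 0.04 each, and the trimming peptidase Erap1 had 0.23 (edgeR adjusted p = 0.0501).

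Interferon induces the immunoproteasome, and 26 genes of its signalling and response were listed. Of these, 25 were tested, 5 rose and 4 fell, where 15.1% of all tested genes rose and 14.1% fell. The receptor chains Ifngr2 (log2 change 1.549, edgeR adjusted p = 0.000862), Ifnar1 (0.95, 0.000588), Ifnar2 (0.52, 0.0113) and Ifngr1 (0.84, 0.0166) rose, and so did the antiviral enzyme gene Oas1a (0.37, 0.0353), whose whole transcript is matched by another gene, so that its value is uncertain. The kinase gene Jak2 fell (log2 change −0.61, edgeR adjusted p = 0.0104), with the response genes Ifit1 (−0.69, 0.0389) and Cxcl10 (−1.31, 0.0192) and the feedback inhibitor Socs1 (−0.68, 0.021). The transcription factor gene Irf1 did not pass (log2 change 0.50, edgeR adjusted p = 0.0676). The receptor chains are expressed in macrophages as well, whose marker sums were higher in hydrogel, and the part of those cells in these changes was not tested.

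The constitutive genes are under the control of NRF1 (gene Nfe2l1), a factor held at the endoplasmic reticulum that is extracted, deglycosylated and cut before it enters the nucleus when the proteasome is short. Of 8 listed genes of this route, 3 rose and 1 fell, where 15.1% of all tested genes rose and 14.1% fell. Nfe2l1 itself had 114, 127, 125 and 112 CPM in liquid and 142, 142, 151 and 138 CPM in hydrogel, without overlap (log2 change 0.26, edgeR adjusted p = 0.0131). Sel1l, of the ubiquitin ligase complex of the endoplasmic reticulum, rose from 193 ± 13.5 to 242 ± 12.8 CPM (log2 change 0.32, edgeR adjusted p = 0.00886). Ddi2, the protease that cuts NRF1, rose from 65.9 ± 6.33 to 81.7 ± 10.4 CPM (log2 change 0.31, edgeR adjusted p = 0.0438). This call was lost when any of the libraries but hydrogel 1 and liquid 2 was left out. It was lost with upper-quartile scaling as well (edgeR adjusted p = 0.0652). Another gene matches 18.3% of the Ddi2 transcript.

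Ngly1, the enzyme that removes the glycans of NRF1, went the other way. It fell, with 58.1 ± 6.38 CPM in liquid and 42.9 ± 1.22 CPM in hydrogel, without overlap (log2 change −0.44, edgeR adjusted p = 0.0039). Vcp, the segregase that extracts NRF1, had a log2 change of −0.20 (edgeR adjusted p = 0.101), with 73.0% of its transcript matched by another gene. None of the 32 constitutive genes rose beside the higher Nfe2l1.

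Among 14 other cap subunits and proteasome-bound factors, 1 rose and 1 fell, where 15.1% of all tested genes rose and 14.1% fell. Zfand2a, a stress-inducible protein that binds the 19S cap, had 17.1, 17.5, 19.7 and 17.2 CPM in liquid and 32.6, 47.9, 53.5 and 41.6 CPM in hydrogel. All hydrogel libraries were above all liquid ones, and the log2 change was 1.295 ± 0.14 (SE), 2.45-fold higher (edgeR adjusted p = 0.000351). Hydrogel 1 was the lowest of its group. Txnl1, a thioredoxin-like protein of the cap, fell (log2 change −0.21, edgeR adjusted p = 0.0301). The edgeR adjusted p was 0.0644 to 0.105 without hydrogel 2, 3 or 4 or liquid 1 or 4. It was 0.103 with library totals alone and 0.098 with no low-count filter, so Txnl1 was called in 10 of 17 alternatives. The cap subunit Sem1 and the ubiquitin receptor Adrm1 did not pass, with log2 changes of −0.13 and −0.10. Another gene matches 88.5% of the Adrm1 transcript, so its value is uncertain.

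Of 7 other assembly factors, 6 were tested and 1 fell, where 14.1% of all tested genes fell. Pomp, the maturation factor of the 20S core that is needed for both the constitutive and the immunoproteasome, had 162, 127, 138 and 149 CPM in liquid and 122, 109, 112 and 113 CPM in hydrogel, without overlap (log2 change −0.34, edgeR adjusted p = 0.0118). The core chaperones Psmg1, Psmg2, Psmg3 and Psmg4 had log2 changes from −0.18 (Psmg3) to −0.01 (Psmg1) and did not pass. Of 6 genes of ubiquitin and its activation, the polyubiquitin gene Ubb fell from 138 ± 13.8 to 109 ± 5.61 CPM (log2 change −0.34, edgeR adjusted p = 0.0112), with 77.8% of its transcript matched by other genes.

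Levels were compared between subunits only per length, as mean CPM per kilobase of the principal transcript in GENCODE M21. In an assembled particle each constitutive alpha and beta subunit is present equally, but transcripts need not be. Of the 14 constitutive core genes without Psma8, the 9 with no matching sequence in other genes had 47.9 to 204 CPM per kb in liquid, from Psma2 to Psmb4, with a median of 146. The 5 whose transcript was matched by other genes over at least 100 bases at 95% identity had 9.53 to 74.6 CPM per kb, with a median of 33.4. The lowest were Psma3 (9.53 CPM per kb, 27% of the transcript matched), Psma5 (24.2 and 76.5%), Psmb3 (33.4 and 80.7%) and Psmb5 (40.4 and 88.4%). Psma4, matched over 66.9%, had 74.6 CPM per kb.

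In the cap the same comparison gave no such gap. The 4 matched genes, Psmc1 (82.0%), Psmd1 (9.8%), Psmd2 (98.2%) and Psmd11 (44.6%), had 70.8 to 132 CPM per kb, and the 13 others 58.3 to 178. The transcript lengths come from the principal isoform, and another isoform would move a level: those used for Psma2 and Psma3 were 2911 and 2846 bases. How reads that match several genes were counted is not stated in the labels, so the levels of the matched genes are uncertain, Psmb5 and Psme2 included, and the height of the ratio of Psmb8 to Psmb5 with them. Psmb8, Psmb9, Psmb10, Psme1, Psmb1, Psmb4 and Psmb6 had no such match. Per kb in liquid, Psmb8 had 59.5 CPM, Psmb10 31.0 and Psmb9 30.6, and the ratio of Psmb9 to Psmb6 per length was 0.178 in liquid and 0.110 in hydrogel.

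**Figure D5:**
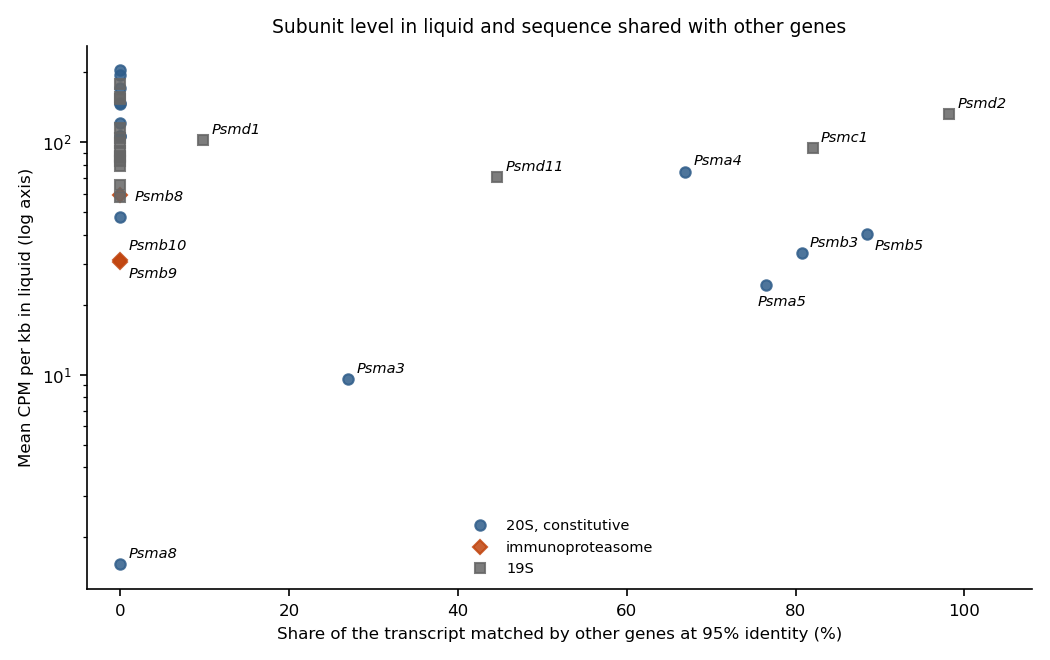
Mean CPM per kb in liquid on a log axis (y axis) against the share of the transcript matched by other genes at 95% identity (x axis), for the constitutive core genes, the immunoproteasome genes and the 19S genes. Psma3, Psma5, Psmb3 and Psmb5 have matched sequence and lie low among the core genes, while the matched 19S genes lie among the other 19S genes, and Psma8 is lowest without a match.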

How the data were processed

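RNA-seq of 4 hydrogel and 4 liquid cultures was deposited by the authors as 1 table of raw counts per gene, whole numbers with no normalization. Libraries were polyA-selected and stranded, per the labels' protocols. The submitters' processing notes name bcl2fastq, STAR 2.7.10b, HTSeq 0.13.5 and build GRCm39. No source used here gives the annotation release, the strand setting or the handling of reads with several matches, so antisense and overlapping genes are uncertain. No row of unassigned reads was present, and 2 lines of text without a gene were dropped. Of 27679 identifiers, 26534 matched a symbol in GENCODE M21, and 0 sample columns were left unused. Library totals of 27012172 to 49281611 set the counting precision.

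Sample titles gave the groups and replicate numbers. Genes were filtered with filterByExpr, scaled by TMM and tested with edgeR 4.0.16 (glmQLFit and glmQLFTest, R 4.3.3), with Benjamini-Hochberg adjustment over all 13845 tested genes at 0.05. P-values weigh the difference between hydrogel and liquid against the spread among the libraries of each culture. Intervals are at 95%, and counts or shares of genes carry no test. Ratios used counts with 0.5 added, and exact two-sided permutation tests over the samples (scipy 1.17.1). Matching sequence was searched with BLAST+ 2.17.0 in GENCODE M21 transcripts (95% identity, 100 bases, same strand, another gene). Alternatives were other scalings (library totals alone, upper quartile, DESeq2's size factors), other filters (none, or 1 CPM in 4 libraries), other tools (limma-voom with limma 3.58.1, DESeq2 1.42.0), the replicate number as a block, an adjusted p under 0.01, each library left out, and for the ratios 2 added to each count. Leaving out both hydrogel 1 and liquid 2 was added after seeing the data. The fits were tested on simulated data.

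The members and the lists were chosen with earlier results of these data known. Every member is named, and values in each library are given for the catalytic subunits, the activators and the members with the highest and lowest change in each role; from the other lists up to 4 called genes with the smallest adjusted p are named, and Nfe2l1, Pomp, Adrm1 and Sem1. Other genes were named after their values were seen. Values of a few listed genes are not reported here. Figures were drawn with matplotlib 3.10.9.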

Additional observations from a re-analysis of the deposited data

Results flagged for a closer look

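In 82 groups of 4 values, for the named genes and the 3 ratios in each culture, 6 held a library whose gap to the nearest other was above Dixon's 95% critical value; chance flags about 1 in 20. Adrm1 was at 13.8 CPM in hydrogel 2, where the nearest other hydrogel library had 15.9. Jak2 was at 307 CPM in hydrogel 1, next to 243. Psmd11 was at 172 CPM in liquid 2, below 209 in the nearest liquid library, and Psmf1 at 51.9 CPM in liquid 2, below 56.6. Zfand2a was at 19.7 CPM in liquid 3, above 17.5. The log2 ratio of Psmb8 to Psmb5 was 0.932 in hydrogel 1, below 1.23 in the nearest hydrogel library. Of the 6 values, 4 belonged to hydrogel 1 or liquid 2, the libraries that lay between the cultures in macrophage markers.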

How the results depend on the processing

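Psmb8, Psmb9 and Psme1 were called lower under all 17 alternatives run, with log2 changes from −0.44 to −0.32, −0.65 to −0.53 and −0.36 to −0.24. No constitutive gene was called higher under any alternative. The count called lower, 3 in the main analysis, was 0 at an adjusted p under 0.01, 1 with library totals alone, 2 with DESeq2's size factors, no filter and limma-voom, and 5 with upper-quartile scaling, with at least 1 CPM in 4 libraries and with DESeq2; it was 0 to 6 when a library was left out (0 without hydrogel 2, 3 or 4, and 1 without liquid 1 or 4), and 6 without both hydrogel 1 and liquid 2. Over all genes, 4052 calls became 2091 at an adjusted p under 0.01, 2700 (without hydrogel 2) to 4975 (without liquid 2) with a library left out, and 5633 without both. Upper-quartile scaling put 41.3% of calls higher and library totals alone 60.1%, against 51.7%. Psmb10 reversed to −0.026 with upper-quartile scaling and −0.024 without hydrogel 3. Psme4 reversed to −0.037 with upper-quartile scaling and −0.088 without both, and with a library left out ran from −0.049 (without hydrogel 1) to 0.073 (without liquid 3), negative also without liquid 1 (−0.0035) and without liquid 2 (−0.042); neither gene was called in any, and the cause was not tested.

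With a library left out, the difference in log2 ratio was −0.31 to −0.18 for Psmb8 against Psmb5 and −0.76 to −0.62 for Psmb9 against Psmb6, with an adjusted exact p of 0.0857 where 3 against 4 samples allow 0.0571 unadjusted. Without both it was −0.10 and −0.76 (adjusted exact p = 0.1, the smallest possible). With the replicate block the values were −0.26 and −0.69 with an adjusted exact p of 0.188, the sign flips of 4 pairs being too few to pass 0.05. Whether the replicate numbers pair the libraries was not settled. Deviations of same-numbered libraries correlated at 0.22, 0.33, −0.13 and 0.10, and 1 of 4 correlated best with its own number. Liquid 2 was the best match of hydrogel 2, 3 and 4, so these correlations cannot decide the pairing. The block gave 4238 calls and 5 constitutive genes lower, and changed no other call of a named gene. Of the settings of named genes, 603 kept their direction and side of the threshold, 33 lost a call, 3 gained one and 7 reversed. At these depths Psmb11, with 3 reads, could not be compared.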
